A study of Mus musculus with 19 samples.

Results

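Integrin and laminin genes were examined in whole lungs of mice with 1 or both copies of Has2, after chronic ovalbumin (OVA) or saline treatment. The set was taken by name, as every gene symbol for an integrin alpha chain (Itga), an integrin beta chain (Itgb) or a laminin chain (Lama, Lamb, Lamc) with at least 20 counts summed over all libraries. This gave 36 of the 49585 genes in the count table, namely 17 integrin alpha chains, 8 integrin beta chains and 11 laminin chains. Itgam, the alpha chain of another leukocyte integrin, stands in the table as 2 separate entries whose names do not match, and was not among the 36.

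Integrins are receptors in the cell membrane made of 1 alpha and 1 beta chain, and they tie cells to the matrix or to other cells and to the actin cytoskeleton inside. Laminins are trimers of an alpha, a beta and a gamma chain that form the sheet of the basement membrane, and several integrins hold epithelial, endothelial and muscle cells to that sheet. In the lung, the basement membrane lies between the alveolar epithelium and the capillaries, while leukocytes use other integrins to leave the blood and to move through the tissue.

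The mice were female, of Balb/c background, 6 to 8 weeks old at the start, and either heterozygous for a Has2 knockout (Has2+/-), backcrossed for at least 8 generations, or wild type (WT). Has2 encodes a hyaluronan synthase, and the heterozygotes keep 1 working copy in every cell. OVA mice had been sensitized with OVA and aluminum hydroxide in the peritoneum and then received 10 µg of OVA in the nose on 5 days a week for 8 weeks, and control mice received saline throughout. Lungs were taken 24 h after the last challenge. There were 5 Has2+/--OVA libraries (numbered 15 to 19), 4 Has2+/--saline libraries (6 to 9), 5 WT-OVA libraries (10 to 14) and 5 WT-saline libraries (1 to 5), each from 1 mouse, and library values are given below in this numerical order.

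The 19 libraries held 4446534 to 7048676 counts (median 5493263). Levels are in CPM (counts rescaled by library size and a composition factor), and a gene was called changed where its adjusted p was below 0.01 and its fold exceeded 1.2 in a model of all 14495 genes with enough counts. Has2 itself was at 1 to 10 counts a library with overlapping groups, which gives no check of the genotype labels. The labelled tissue showed its markers, and surfactant and other alveolar type 2 markers summed to 13190 to 16230 CPM in Has2+/--OVA, 10560 to 13640 in Has2+/--saline, 13880 to 15460 in WT-OVA and 13460 to 15230 in WT-saline lungs. Cardiac muscle markers were also present, at 257 to 1189 CPM. Dbp, a clock gene, was at 132 to 197 CPM in libraries 8, 9 and 19, while the other Has2+/--OVA libraries held 11.1 to 30.3, the other Has2+/--saline libraries 10.7 and 13.95, the WT-OVA libraries 7.23 to 20.8 and the WT-saline libraries 24.7 to 116 CPM, and the main counts of calls are therefore also given without these 3. Arntl, another clock gene, was at 3.12 to 9.45 CPM in WT-saline and 26.8 to 35.3 CPM in WT-OVA libraries. In Has2+/- mice it was at 5.87 to 26.0 CPM after saline and 7.88 to 38.3 CPM after OVA. Leaving out libraries 8, 9 and 19 does not change the WT groups and keeps only libraries 6 and 7 of Has2+/--saline mice. The part of the clock in the results was not tested.

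Among the leukocyte integrins, Itgax, Itgb2, Itgal, Itga4 and Itgb7 rose after OVA in both genotypes, while the laminin chain Lamb2 and the collagen and laminin receptor chains Itga1, Itga2 and Itga3 fell in both. In a model of the Has2+/- groups alone, Itgb7, Lamb2, Itga1 and Itga3 lost their call. The largest rises were those of Itgax and Itgb2, at 5.68-fold and 4.23-fold in Has2+/- mice and 5.43-fold and 3.73-fold in WT mice, and no called fall exceeded 1.97-fold. No laminin rose. None of the 34 genes tested in the model was called between the genotypes, and the response to OVA was not called different between them.

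After OVA, Itgax and Itga4 rose and Itga1 and Itga2 fell in both genotypes, and Itga2b was called lower within Has2+/- mice only. Promoter windows of these 5 genes are shown here, picked among the 22 at hand for genes with large changes. Each is the 250 bases before the RefSeq start site on GRCm38.p6, 5′ to 3′ along the gene, and capitals mark matches to a PU.1 core (GAGGAA) or an AP-1 site (TGANTCA) on either strand. PU.1 is a transcription factor of myeloid cells and AP-1 a general one, and matches of the 2 motifs do not overlap here. The Itgax window lies at chr7:128129300-128129549 on the plus strand, the Itga4 window at chr2:79255176-79255425 on the plus strand, the Itga2b window at chr11:102469884-102470133 on the minus strand, the Itga2 window at chr13:114932101-114932350 on the minus strand and the Itga1 window at chr13:115101965-115102214 on the minus strand.
Itgax: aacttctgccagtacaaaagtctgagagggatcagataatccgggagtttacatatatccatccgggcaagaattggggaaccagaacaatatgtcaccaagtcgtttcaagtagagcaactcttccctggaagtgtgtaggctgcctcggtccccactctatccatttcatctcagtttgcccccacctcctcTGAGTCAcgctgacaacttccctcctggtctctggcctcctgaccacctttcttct
Itga4: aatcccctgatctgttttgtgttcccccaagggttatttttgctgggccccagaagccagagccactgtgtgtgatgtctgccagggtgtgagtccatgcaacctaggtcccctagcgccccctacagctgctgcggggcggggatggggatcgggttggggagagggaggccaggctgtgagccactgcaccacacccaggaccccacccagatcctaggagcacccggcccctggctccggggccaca
Itga2b: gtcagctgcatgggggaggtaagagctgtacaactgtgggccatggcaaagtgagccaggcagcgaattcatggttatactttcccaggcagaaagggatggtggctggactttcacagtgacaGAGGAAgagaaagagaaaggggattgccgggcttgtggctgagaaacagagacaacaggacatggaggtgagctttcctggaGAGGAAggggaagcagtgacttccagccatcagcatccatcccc
Itga2: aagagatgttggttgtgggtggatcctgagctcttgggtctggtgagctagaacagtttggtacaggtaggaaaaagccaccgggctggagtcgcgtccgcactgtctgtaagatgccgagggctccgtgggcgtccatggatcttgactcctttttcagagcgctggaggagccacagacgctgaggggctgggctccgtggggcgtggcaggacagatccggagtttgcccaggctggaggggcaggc
Itga1: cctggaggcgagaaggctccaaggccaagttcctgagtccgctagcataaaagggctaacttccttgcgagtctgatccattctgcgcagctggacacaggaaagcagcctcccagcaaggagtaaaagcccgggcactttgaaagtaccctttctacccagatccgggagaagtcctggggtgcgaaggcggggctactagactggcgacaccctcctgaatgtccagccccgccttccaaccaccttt

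The Itgax window held 1 AP-1 match, TGAGTCA, whose first base lay 56 bases before the start site. It was the only match to that motif among the 22 integrin and laminin windows at hand, against 6.75% of all 32851 windows of this length. The Itga2b window held 2 matches to the PU.1 core, 126 and 44 bases before the start. Windows with a PU.1 core numbered 10 of 22, among them Itga5, Itgb1, Lamb2 and Lamb3, against 23.3% of all windows. The windows of Itga4, Itga2 and Itga1 held neither. Nor did that of Itga8, which is not shown. Its mean log2 fold change over both genotypes was -0.68, beside -0.66 for Itga2b. These are matches of letters and not measured sites. The start site of some windows lay inside the gene as deposited, such as 239 bases from its 5′ end for Itga2b, 2816 for Lama2 and 105002 for Itga9.

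Several members lie side by side. Itga1 and Itga2, alpha chains of collagen receptors, follow each other on the minus strand of chromosome 13 with 26.0 kb between them, and both fell after OVA in both genotypes. Itgax and Itgad lie 3.72 kb apart on chromosome 7, and Itgal lies 794 kb before Itgax on the same strand. Itgax was among the most changed of all members, whereas Itgad was at under 2 CPM in every library.

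**Figure D1:**
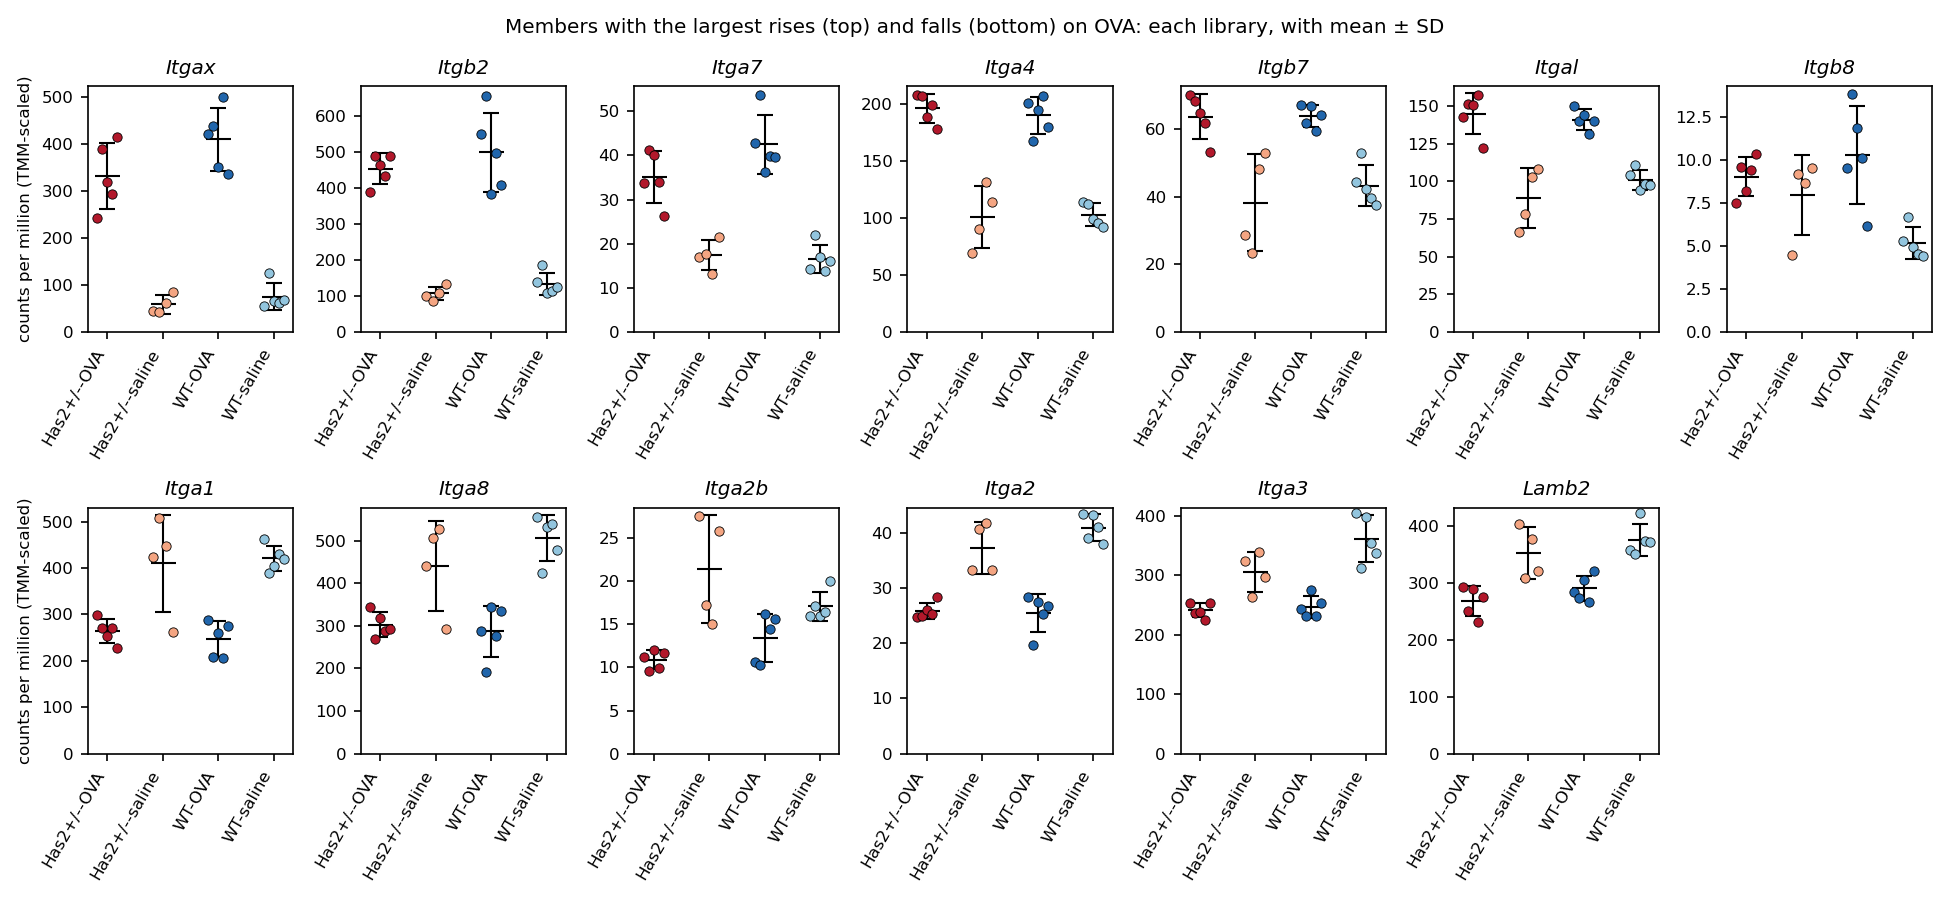
CPM in each of the 19 libraries, on linear axes that start at 0, for the members with the 7 largest rises (top row) and 6 of the 7 largest falls (bottom row), with 1 point per library and bars for the group mean ± SD (5, 4, 5 and 5 libraries). Itgax sits at 242 to 415 CPM in Has2+/--OVA and 336 to 499.6 in WT-OVA lungs, above all saline libraries of either genotype, and Itga2 sits at 24.9 to 28.4 and 19.7 to 28.5 CPM, below all of them.

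Within Has2+/- mice, 13 of the 34 tested members were called after OVA, or 38.2%, against 18.2% of all tested genes. Of these, 6 were higher, where 10.5% of all genes were, and 7 were lower, where 7.72% were. Within WT mice, 16 members were called, or 47.1%, against 21.9% of all genes. There 7 were higher and 9 were lower, against 12% and 9.95% of all genes. The median log2 fold change of the members was -0.17 in Has2+/- mice, with -0.01 for all genes, and -0.07 in WT mice, with -0.0012 for all genes. Both genotypes shared 11 of these calls, 6 higher and 5 lower. Of all 14495 tested genes, 2070 were called in both, 1242 higher and 828 lower. No member called in either genotype had opposite signs, and neither did any gene called in both. A model of the compared groups alone gave 7 calls in Has2+/- and 17 in WT mice. Without libraries 8, 9 and 19 there were 15 calls in Has2+/- and 17 in WT mice. The share of all genes called under these alternative fits is not given, so these counts do not set the members against other genes. Libraries of the compared groups did not overlap for 12 members in Has2+/- mice, against 18.3% of all genes, and for 17 members in WT mice, against 27.4%.

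Itgb2 encodes the beta chain (CD18) that pairs with the alpha chains Itgax, Itgal and Itgad on leukocytes. Its level was 388, 490.4, 464, 433 and 489.6 CPM in Has2+/--OVA lungs, against 101, 87.6, 108 and 133 CPM in Has2+/--saline lungs. In WT mice it was 551, 655, 384, 498 and 409 CPM after OVA, against 138, 185, 108, 113 and 124 CPM after saline. Every OVA library was more than 2 times as high as every saline library of either genotype. The log2 fold change was 2.08 (SE 0.17, adjusted p = 2.97e-08) in Has2+/- mice and 1.90 (SE 0.16, adjusted p = 1.57e-08) in WT mice, where SE is the standard error and p is edgeR's, adjusted over all tested genes.

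Itgax encodes CD11c, an alpha chain that pairs with Itgb2 and marks alveolar macrophages and dendritic cells in the mouse lung. It was at 242, 389, 319, 294 and 415 CPM in Has2+/--OVA lungs, against 45.4, 42.9, 61.2 and 85.2 CPM in Has2+/--saline lungs. WT-OVA lungs held 421, 438, 351, 499.6 and 336 CPM, against 55.4, 125, 65.05, 61.7 and 69 CPM in WT-saline lungs. The groups did not overlap in either genotype, and WT-saline library 2 was the highest of the saline libraries. OVA over saline gave a log2 fold change of 2.51 (SE 0.24, adjusted p = 2.22e-07) in Has2+/- mice and 2.44 (SE 0.22, adjusted p = 5.13e-08) in WT mice, the largest of any member in both.

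Itgal encodes CD11a, which with Itgb2 forms the lymphocyte integrin that binds ICAM molecules. Has2+/--OVA lungs held 143, 152, 151, 157 and 122 CPM, against 66.4, 78.6, 103 and 108 CPM in Has2+/--saline lungs. In WT mice there were 150.1, 140.2, 144, 131 and 139.8 CPM after OVA, against 104, 111, 94.1, 98.5 and 97.8 CPM after saline. No OVA library overlapped the saline libraries of its genotype, and Has2+/--saline libraries 6 and 7 were the lowest of all. Itgal rose by a log2 fold change of 0.71 (SE 0.11, adjusted p = 6.65e-05) in Has2+/- mice and 0.48 (SE 0.10, adjusted p = 0.00102) in WT mice. Itgad, which encodes CD11d, had 43 counts in all and did not reach the model. Its levels were 0.481, 0.370, 1.40, 0.471 and 0.576 CPM in Has2+/--OVA lungs, against 0.291, 0.187, 0.334 and 0.435 CPM in Has2+/--saline lungs. They were 0.638, 0.184, 0.205, 0.348 and 0.364 CPM in WT-OVA lungs, against 1.10, 0, 0.198, 0 and 0.158 CPM in WT-saline lungs. A count of 0 in WT-saline libraries 2 and 4 allows up to 0.535 and 0.615 CPM, which covers most of the other values. An exact two-sided permutation test of the means gave p = 0.0317 for OVA in Has2+/- mice, or 0.254 adjusted over the 8 tests of this kind, and p = 0.841 in WT mice. The smallest p possible was 0.00794 in WT mice and larger in Has2+/- mice, which have fewer saline libraries.

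Itga4 encodes the alpha chain that pairs with Itgb1 or Itgb7 and binds VCAM and MAdCAM on endothelium. Its level was 208, 207, 189, 199 and 178 CPM in Has2+/--OVA lungs, against 69.05, 90.05, 131 and 114 CPM in Has2+/--saline lungs. It was 201, 168, 195, 207 and 179.7 CPM in WT-OVA lungs, against 114, 112, 99.5, 95.8 and 92.2 CPM in WT-saline lungs. The 10 OVA libraries were all above the 9 saline libraries, which varied most among Has2+/- mice. The log2 fold change was 0.96 (SE 0.13, adjusted p = 1.41e-05) and 0.89 (SE 0.12, adjusted p = 1.05e-05) in Has2+/- and WT mice.

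Itgb7, whose chain joins Itga4 or Itgae on lymphocytes, was at 70.2, 68.5, 64.8, 61.97 and 53.2 CPM in Has2+/--OVA lungs, against 28.8, 23.4, 48.3 and 52.8 CPM in Has2+/--saline lungs. Levels were 67.2, 61.98, 66.8, 59.6 and 64.3 CPM in WT-OVA lungs, against 44.4, 52.9, 42.3, 39.7 and 37.5 CPM in WT-saline lungs. The groups did not overlap, although Has2+/--OVA library 19 and saline library 9 lay within 1 CPM of each other. Itgb7 rose by 0.74 (SE 0.17, adjusted p = 0.00226) in Has2+/- mice and 0.56 (SE 0.16, adjusted p = 0.00848) in WT mice on the log2 scale. The WT call was lost when any 1 of 12 libraries was left out (adjusted p up to 0.0249), and the Has2+/- call without library 6 and in a model of the compared groups alone (adjusted p = 0.0227). Itgae, which encodes CD103 on T cells and dendritic cells of epithelia, did not pass, with log2 fold changes of 0.58 (SE 0.25, adjusted p = 0.0823) and 0.66 (SE 0.23, adjusted p = 0.0344). Without Has2+/--saline library 9 it did pass in Has2+/- mice, at 0.90 (adjusted p = 0.00516).

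Markers of several leukocytes moved with these genes, and those of others did not. All 4 pan-leukocyte markers rose in each genotype and summed to 864 to 1044 CPM in Has2+/--OVA against 348 to 569 in Has2+/--saline lungs, and to 808 to 1040 in WT-OVA against 458 to 582.5 in WT-saline lungs. Of 5 tested macrophage markers, 4 rose in Has2+/- and 5 in WT mice, with sums of 6348 to 8608 against 2422 to 2808 CPM and 5774 to 9092 against 2700 to 4174 CPM. All 6 B and plasma cell markers rose, with sums of 1720 to 2654 against 112 to 226 CPM in Has2+/- and 1909 to 2815 against 112 to 181 CPM in WT mice. Of 4 tested eosinophil markers, 2 rose in Has2+/- and 3 in WT mice, with sums of 13.4 to 33.7 against 7.61 to 10.3 CPM and 24.02 to 44.8 against 8.70 to 15.2 CPM, with Epx at 0 in every Has2+/--saline library. None of 7 T cell markers, which summed to 65.4 to 259 CPM over all groups, and none of 4 tested neutrophil markers passed, and Ly6g was at 0 in every WT-saline library. Dendritic cell markers split, with 2 of 6 higher and 1 lower in each genotype and sums of 169 to 182 against 178 to 232 CPM in Has2+/- and 147 to 183 against 192 to 226 CPM in WT mice. Of 4 natural killer cell markers, 0 rose in either genotype and 1 fell in WT mice. Their sums were 24.5 to 36.9 against 18.5 to 34.3 CPM in Has2+/- and 20.4 to 27.2 against 27.3 to 40.3 CPM in WT mice. None of 3 tested mast cell markers passed in either genotype. In bulk lung RNA, fewer or more cells of a type cannot be told apart from less or more RNA per cell, and the part of these cells in the rises was not tested.

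Itga7 was also called higher after OVA within both genotypes, and Itgb8 within WT mice only. Itga7 encodes the alpha chain of a laminin receptor best known in muscle. Has2+/--OVA lungs held 33.8, 41.3, 40.1, 34.04 and 26.3 CPM, against 17.01, 17.8, 13.2 and 21.5 CPM in Has2+/--saline lungs. WT-OVA lungs held 42.7, 53.7, 36.3, 39.9 and 39.7 CPM, against 14.3, 21.9, 17, 13.7 and 16.1 CPM in WT-saline lungs. All OVA libraries were above all saline libraries, with the lowest OVA value in Has2+/--OVA library 19. Its log2 fold change was 1.02 (SE 0.16, adjusted p = 7.63e-05) in Has2+/- mice and 1.35 (SE 0.15, adjusted p = 9.01e-07) in WT mice. Of 6 smooth muscle markers, 3 fell in Has2+/- mice and none was called in WT mice. Their sums were 635 to 744 against 799 to 1134 CPM and 691 to 917 against 726 to 782 CPM. Of 5 cardiac markers, 3 fell in Has2+/- mice and none was called in WT mice. Their sums were 286 to 546 against 624 to 1189 CPM and 257 to 578 against 481 to 877 CPM. The part of muscle cells in the rise of Itga7 was not tested.

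Itgb8 encodes a beta chain that pairs with Itgav and activates latent TGF-β. It was at 7.54, 9.62, 8.23, 9.41 and 10.4 CPM in Has2+/--OVA lungs, against 4.51, 9.17, 8.69 and 9.56 CPM in Has2+/--saline lungs. In WT mice it was at 9.57, 13.8, 11.9, 10.11 and 6.20 CPM after OVA, against 5.32, 6.70, 4.94, 4.57 and 4.41 CPM after saline. Of the 4 Has2+/--saline libraries, 3 were already in the range of the OVA libraries, and in WT mice only OVA library 14 reached into the saline range. Itgb8 rose in WT mice by a log2 fold change of 0.99 (SE 0.22, adjusted p = 0.00127), and in Has2+/- mice the value was 0.19 (SE 0.22, adjusted p = 0.554). The difference between the 2 responses was -0.79 (SE 0.31, 95% interval -1.44 to -0.15), with an unadjusted p of 0.0176 and an adjusted p of 1.0.

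**Figure D2:**
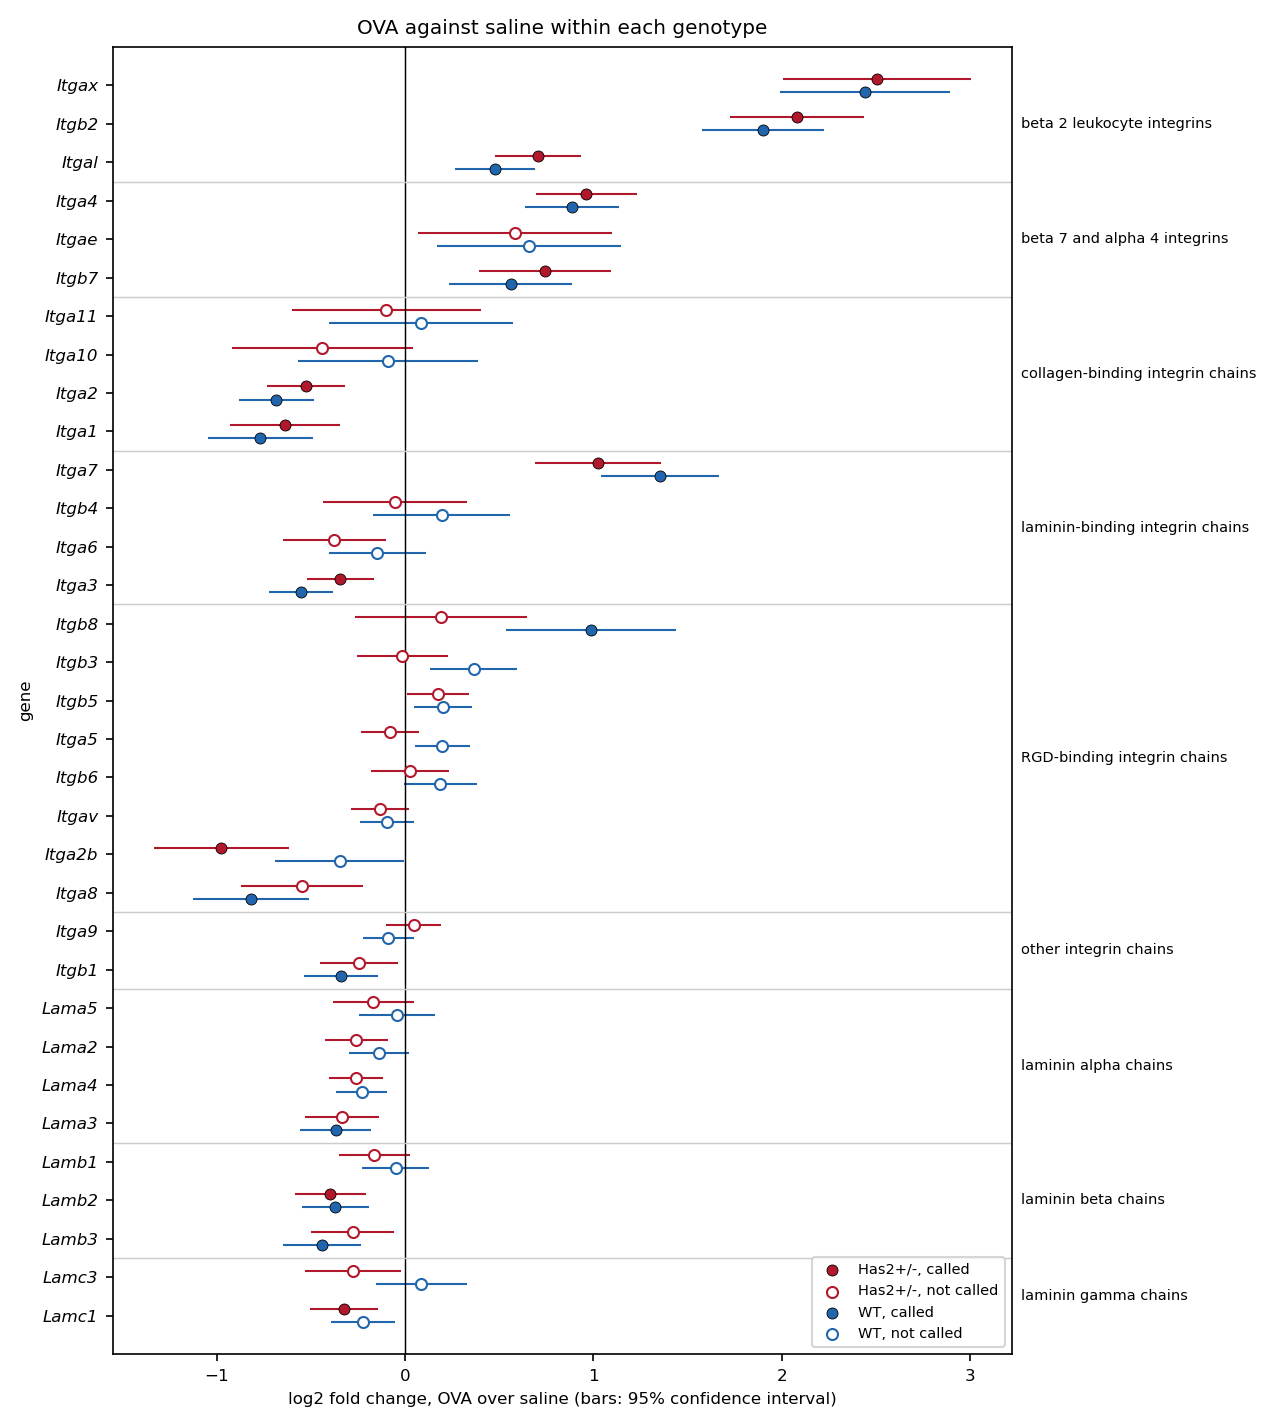
Log2 fold changes of OVA over saline for 33 of the 34 tested members, with Has2+/- and WT mice side by side, bars for the 95% interval of edgeR's fit, and filled points for called members. Itgax (2.51 and 2.44) and Itgb2 (2.08 and 1.90) lie far above the rest, and no laminin has a called value above 0.

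Of the 4 collagen-binding alpha chains, 2 fell in both genotypes, Itga1 and Itga2. Itga1 pairs with Itgb1 to bind collagen IV, a main component of basement membranes. It was at 298, 271, 253, 269.5 and 227 CPM in Has2+/--OVA lungs, against 423, 508, 446 and 263 CPM in Has2+/--saline lungs. WT-OVA lungs held 287, 208, 259.9, 205 and 275 CPM, against 462, 389.6, 403, 429 and 419 CPM in WT-saline lungs. The WT groups did not overlap, whereas Has2+/--saline library 9 lay within the OVA range. Itga1 fell, with log2 fold changes of -0.64 (SE 0.14, adjusted p = 0.00175) in Has2+/- mice and -0.77 (SE 0.13, adjusted p = 0.000151) in WT mice, and the Has2+/- call was lost without library 7 and in a model of the compared groups alone (adjusted p = 0.0127). Pelo, a gene inside Itga1 on the same strand, was at under 5 CPM in every library. Gm49395 shares 66649 bases with Itga1 on the same strand, and its level was not examined.

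Itga2 encodes the alpha chain of the fibrillar collagen receptor of platelets and epithelia. Has2+/--OVA lungs held 24.9, 24.98, 26.1, 25.3 and 28.4 CPM, against 33.3, 40.8, 41.8 and 33.3 CPM in Has2+/--saline lungs. WT-OVA lungs held 28.5, 19.7, 27.5, 25.3 and 26.8 CPM, against 43.5, 39.1, 43.3, 41.1 and 37.97 CPM in WT-saline lungs. All OVA libraries were below all saline libraries. The log2 fold change was -0.53 (SE 0.10, adjusted p = 0.000506) in Has2+/- mice and -0.68 (SE 0.10, adjusted p = 1.44e-05) in WT mice. The other collagen-binding chains, Itga10 and Itga11 of cartilage and fibroblasts, did not pass, with -0.44 (SE 0.23, adjusted p = 0.164) and -0.09 (SE 0.23, adjusted p = 0.795) for Itga10, and -0.10 (SE 0.24, adjusted p = 0.83) and 0.09 (SE 0.23, adjusted p = 0.827) for Itga11.

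Itga8 encodes the nephronectin receptor of mesenchymal cells. It was at 346, 270.2, 319, 288 and 292 CPM in Has2+/--OVA lungs, against 440.0, 506, 527 and 293 CPM in Has2+/--saline lungs. In WT lungs it was at 288, 192, 344, 277 and 335 CPM after OVA, against 555, 425, 532, 539.7 and 479 CPM after saline. The WT groups did not overlap, and Has2+/--saline library 9 again lay among the OVA libraries. Itga8 fell in WT mice, at -0.82 (SE 0.15, adjusted p = 0.000234), and the value in Has2+/- mice was -0.54 (SE 0.16, adjusted p = 0.0115). Without library 9 the Has2+/- value was -0.70 (adjusted p = 0.000605).

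Itga2b encodes the platelet alpha chain (CD41) that pairs with Itgb3 to bind fibrinogen. Has2+/--OVA lungs held 11.2, 9.62, 12.1, 9.88 and 11.7 CPM, against 27.6, 17.2, 15.04 and 25.9 CPM in Has2+/--saline lungs. WT-OVA lungs held 10.6, 10.3, 16.2, 14.5 and 15.7 CPM, against 15.9, 17.1, 16.01, 16.4 and 20.01 CPM in WT-saline lungs. The Has2+/- groups did not overlap, with saline libraries 6 and 9 the highest of all 19, and the WT groups overlapped. Itga2b fell in Has2+/- mice, at -0.97 (SE 0.17, adjusted p = 0.00025), and the WT value was -0.35 (SE 0.16, adjusted p = 0.112). The difference between the responses was -0.63 (SE 0.24, 95% interval -1.13 to -0.13), with an unadjusted p of 0.0157 and an adjusted p of 1.0. Of 4 tested platelet markers, 2 fell in Has2+/- mice and none passed in WT mice, with sums of 11.2 to 16.7 against 14.4 to 34.3 CPM and 9.78 to 20.7 against 18.98 to 24.1 CPM. Their part in the fall was not tested.

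Itga3, the alpha chain of the main laminin receptor of lung epithelium, fell in both genotypes. It was at 253, 237, 238, 225 and 254 CPM in Has2+/--OVA lungs, against 324, 263, 339 and 297 CPM in Has2+/--saline lungs. WT-OVA lungs held 243, 232, 274, 231 and 253 CPM, against 405, 312, 399, 354 and 338 CPM in WT-saline lungs. Neither pair of groups overlapped, and Has2+/--saline library 7 came nearest to the OVA range. On the log2 scale the fold change was -0.34 (SE 0.09, adjusted p = 0.0049) in Has2+/- mice and -0.55 (SE 0.08, adjusted p = 2.8e-05) in WT mice. The Has2+/- call was lost when any 1 of 5 libraries was left out (adjusted p up to 0.0236), without libraries 8, 9 and 19 (adjusted p = 0.0378), and in a model of the compared groups alone (adjusted p = 0.0172). Itga6, which pairs with Itgb4 in hemidesmosomes, did not pass at -0.37 (SE 0.13, adjusted p = 0.0343) and -0.15 (SE 0.12, adjusted p = 0.381), and Itgb4 did not at -0.05 (SE 0.18, adjusted p = 0.864) and 0.19 (SE 0.18, adjusted p = 0.422).

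Itgb1, the common beta chain of the collagen, laminin and fibronectin receptors, averaged 589 ± 53.3 CPM in Has2+/--OVA and 699 ± 131 CPM in Has2+/--saline lungs (SD, n = 5 and 4), and 575 ± 38.5 CPM in WT-OVA and 729 ± 14.8 CPM in WT-saline lungs (SD, n = 5 each). It fell in WT mice, at a log2 fold change of -0.34 (SE 0.09, adjusted p = 0.00799), and the Has2+/- value was -0.25 (SE 0.10, adjusted p = 0.0701). The WT call was lost without any 1 of 13 of the 19 libraries (adjusted p up to 0.0273). Without Has2+/--saline library 9, Itgb1 passed in Has2+/- mice at -0.36 (adjusted p = 0.00252).

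The laminins fell or did not pass, and none was called higher in any comparison. Of the 9 tested laminin chains described here, 9 lay below 0 on the log2 scale in Has2+/- mice, where 51.9% of all genes did, and 8 in WT mice, where 50.1% did. Calls among them, all lower, numbered 2 in Has2+/- mice (Lamb2, Lamc1) and 3 in WT mice (Lama3, Lamb2, Lamb3), where 7.72% and 9.95% of all tested genes were called lower.

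Lamb3, a beta chain of epithelial basement membranes, was at 59, 64.2, 71.6, 53.3 and 61.9 CPM in Has2+/--OVA lungs, against 81.4, 71.3, 90.1 and 56.5 CPM in Has2+/--saline lungs. WT-OVA lungs held 61.6, 68.8, 63.5, 74.8 and 69.2 CPM, against 89.1, 93.6, 99.2, 93.1 and 84.8 CPM in WT-saline lungs. The WT groups did not overlap, and Has2+/--saline libraries 7 and 9 lay in the OVA range. Lamb3 fell in WT mice, at -0.44 (SE 0.10, adjusted p = 0.0016), and the Has2+/- value was -0.28 (SE 0.11, adjusted p = 0.0522), or -0.39 (adjusted p = 0.0026) without library 9. Hsd11b1, a glucocorticoid-activating enzyme, overlaps Lamb3 on the opposite strand, and it was at 31.1 to 36.7 CPM in Has2+/--OVA against 32.8 to 81.1 CPM in Has2+/--saline lungs, and at 28.8 to 37.0 CPM in WT-OVA against 64.9 to 80.8 CPM in WT-saline lungs. The kit marks strand but the counting by strand is not stated, so reads of the 2 genes may not be told apart.

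Lama3, an alpha chain of epithelial basement membranes, averaged 289 ± 30.7 CPM in Has2+/--OVA and 365 ± 26.6 CPM in Has2+/--saline lungs (SD, n = 5 and 4), and 276 ± 38.1 CPM in WT-OVA and 356 ± 19.7 CPM in WT-saline lungs (SD, n = 5 each). It fell in WT mice, at -0.37 (SE 0.09, adjusted p = 0.00334), and the Has2+/- value of -0.33 (SE 0.10, adjusted p = 0.0111) just missed the threshold. Leaving out WT-saline library 3 or 4 or WT-OVA library 11 ended the WT call (adjusted p up to 0.0127).

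Lamb2 is the beta chain of laminins in mature basement membranes of vessels, alveoli and muscle. It was at 292, 250.2, 289, 232 and 274 CPM in Has2+/--OVA lungs, against 403, 308, 377 and 320.4 CPM in Has2+/--saline lungs. WT-OVA lungs held 284, 274, 305, 266 and 321 CPM, against 356, 349.6, 422, 373 and 371 CPM in WT-saline lungs. The OVA and saline libraries did not overlap within either genotype. Lamb2 fell, at -0.40 (SE 0.09, adjusted p = 0.00243) in Has2+/- mice and -0.37 (SE 0.09, adjusted p = 0.00213) in WT mice on the log2 scale. The Has2+/- call was lost without library 6 or 18 and in a model of the compared groups alone (adjusted p = 0.0191), and the WT call without library 3. Lamc1, the gamma chain of most laminins, averaged 305 ± 31.96 CPM in Has2+/--OVA and 382 ± 40.5 CPM in Has2+/--saline lungs (SD, n = 5 and 4), and 318 ± 29.1 CPM in WT-OVA and 372 ± 16.3 CPM in WT-saline lungs (SD, n = 5 each). Lamc1 fell in Has2+/- mice, at -0.32 (SE 0.09, adjusted p = 0.00741), a call that was lost without any 1 of 10 libraries (adjusted p up to 0.0456) and in a model of the compared groups alone (adjusted p = 0.0395), and the WT value was -0.22 (SE 0.08, adjusted p = 0.0395).

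Lama4, the alpha chain of endothelial and muscle basement membranes, met the p threshold in both genotypes at -0.26 (SE 0.07, adjusted p = 0.00646) and -0.23 (SE 0.07, adjusted p = 0.00927), but its folds were under 1.2, so it was not called, although the libraries did not overlap in either genotype. Lama5, the main alpha chain of adult epithelial and vascular basement membranes, gave -0.17 (SE 0.10, adjusted p = 0.236) in Has2+/- and -0.04 (SE 0.10, adjusted p = 0.772) in WT mice. Lama2, the alpha chain of muscle and peripheral nerve, gave -0.26 (SE 0.08, adjusted p = 0.0182) and -0.14 (SE 0.08, adjusted p = 0.17), and its Has2+/- groups did not overlap. Lamb1, the other widespread beta chain, gave -0.16 (SE 0.09, adjusted p = 0.192) and -0.05 (SE 0.09, adjusted p = 0.7). None of these 3 passed in either genotype. Lama1, the alpha chain of embryonic basement membranes, was too low for the model. Its levels were 1.76, 1.67, 1.05, 0.941 and 0.576 CPM in Has2+/--OVA lungs, against 1.16, 0.749, 1.17 and 0.435 CPM in Has2+/--saline lungs. They were 1.28, 1.29, 2.05, 1.57 and 2.19 CPM in WT-OVA lungs, against 0.550, 1.23, 1.38, 1.66 and 1.42 CPM in WT-saline lungs. Its groups overlapped, and exact two-sided permutation tests gave p = 0.317 for OVA in Has2+/- mice and p = 0.183 in WT mice.

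Alveolar type 1, endothelial and mesothelial markers moved with these falls. Of 6 alveolar type 1 markers, 5 fell in each genotype, with sums of 1791 to 2114 CPM in Has2+/--OVA against 2220 to 3128 in Has2+/--saline lungs, and 1861 to 2289 CPM in WT-OVA against 2895 to 3183 in WT-saline lungs. Likewise 3 of 6 endothelial markers fell in each genotype, with sums of 2247 to 3150 against 2544 to 4213 CPM and 2383 to 3187 against 3318 to 4127 CPM. All 4 mesothelial markers fell in each genotype, with sums of 101 to 117 against 166 to 238 CPM and 86.2 to 123 against 155 to 192 CPM. Fibroblast markers fell in 2 of 6 in Has2+/- and 1 of 6 in WT mice, with overlapping sums of 1383 to 1895 against 1606 to 1881 CPM and 1478 to 1910 against 1587 to 1701 CPM. Alveolar type 2 markers went the other way, with 3 of 5 higher in Has2+/- and 1 of 5 in WT mice. Of 3 tested basal epithelial markers none passed in Has2+/- and 2 rose in WT mice, with sums under 16 CPM throughout and Dsg3 at 0 in every library. The part of these cells in the falls of the chains was not tested.

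Other integrin chains passed in neither OVA comparison. Itgav, the alpha chain of several RGD-binding receptors, gave -0.13 (SE 0.07, adjusted p = 0.183) in Has2+/- and -0.10 (SE 0.07, adjusted p = 0.309) in WT mice. Itgb3, the beta chain of platelets and osteoclasts, gave -0.01 (SE 0.12, adjusted p = 0.946) and 0.36 (SE 0.11, adjusted p = 0.0147), and its WT groups did not overlap. Itgb5 of epithelia and macrophages gave 0.17 (SE 0.08, adjusted p = 0.105) and 0.20 (SE 0.07, adjusted p = 0.0424), and the epithelial Itgb6, which activates latent TGF-β, gave 0.03 (SE 0.10, adjusted p = 0.873) and 0.19 (SE 0.09, adjusted p = 0.129). Itga9, which binds tenascin and lies on lymphatic endothelium and smooth muscle, gave 0.05 (SE 0.07, adjusted p = 0.663) and -0.09 (SE 0.07, adjusted p = 0.327). Itga5 and Lamc3 are given with the genotypes.

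Levels of different chains were compared per kilobase of exon, over the annotated exons of each gene. Itgb1 stood first in saline lungs, at 171 ± 32 CPM per kb in Has2+/- and 178 ± 3.63 CPM per kb in WT mice (SD, n = 4 and 5). After OVA, Itgb2 reached the same level, at 148 ± 14.2 CPM per kb in Has2+/--OVA lungs beside 144 ± 13.1 for Itgb1, and at 164 ± 36.1 in WT-OVA lungs beside 141 ± 9.43 (SD, n = 5 each). These 2 neighbours lay within their spread of each other after OVA. Among laminins in WT-saline lungs, Lamb2 (61.6 ± 4.68), Lamc1 (44.95 ± 1.97) and Lama5 (42.8 ± 2.63) were the highest beta, gamma and alpha chain in CPM per kb, and the same 3 led in every group.

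**Figure D3:**
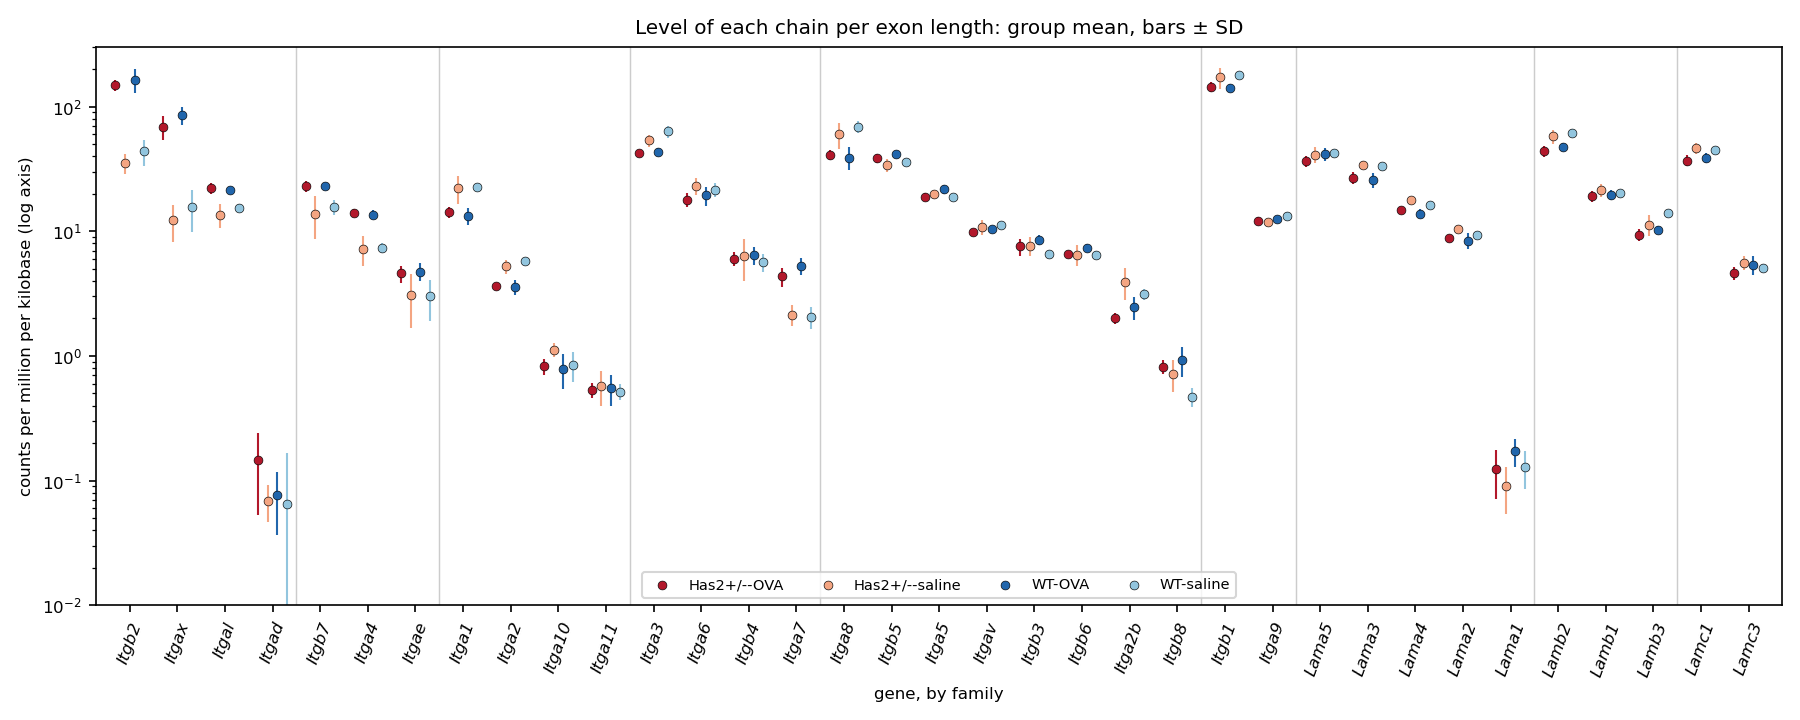
Mean level of 35 chains in CPM per kilobase of exon in the 4 groups, on a log axis, with bars for the SD over 5, 4, 5 and 5 libraries. Itgb2 and Itgb1 lie together near 148 ± 14.2 and 144 ± 13.1 in Has2+/--OVA lungs. Itgad and Lama1 lie lowest in every group, and the lower bar of Itgad in WT-saline lungs is cut at the floor of the axis.

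The same levels give the makeup of the beta chains. Itgb2 made up 39.6% ± 3.63 of all integrin beta chain CPM per kb in Has2+/--OVA lungs, against 12.9% ± 3.29 in Has2+/--saline lungs (SD, n = 5 and 4). It made up 41.4% ± 5.89 in WT-OVA lungs, against 14.9% ± 2.92 in WT-saline lungs (SD, n = 5 each). The share of Itgb1 was 38.4% ± 2.78 against 61.8% ± 7.46 in Has2+/- mice, and 36.2% ± 4.33 against 60.98% ± 3.02 in WT mice. Shares within a set add to a fixed total, so a rise in one lowers the others. Laminin alpha chain proportions moved by a few percentage points. Lama5 was 41.9% ± 1.93 of alpha chains in Has2+/--OVA against 39.7% ± 3.90 in Has2+/--saline lungs, and 46.3% ± 2.82 in WT-OVA against 42.1% ± 1.03 in WT-saline lungs. These shares are descriptions and were not tested.

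**Figure D4:**
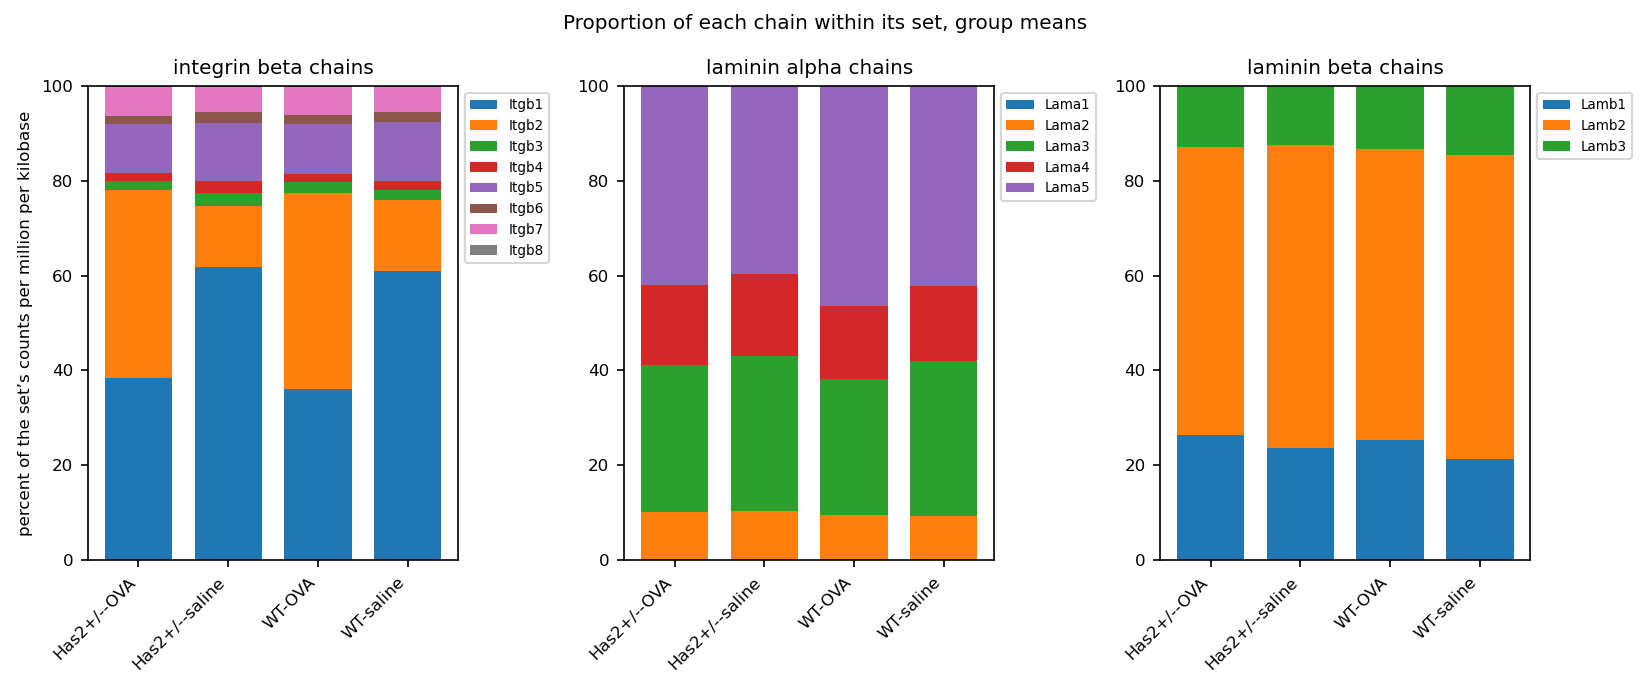
Mean percentage of each chain within its set, from CPM per kilobase of exon, for integrin beta chains and laminin alpha and beta chains, with 1 stacked bar per group (5, 4, 5 and 5 libraries). Itgb2 takes up 39.6% ± 3.63 and 41.4% ± 5.89 of the beta chains in the 2 OVA groups, while the laminin chains keep the same order in all 4 groups.

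Between the genotypes no member was called. In the OVA groups, Has2+/- against WT, edgeR called 0 of the 34 members and 0.0% of all genes, and DESeq2 called 8 genes (0.0553%) and no member. At an unadjusted p under 0.05 there was 1 member, Itga5, where 7.73% of all genes lay under it. The smallest adjusted p of a member was 0.432. In the saline groups, edgeR called 0 members and 0.0% of all genes, DESeq2 called 1 gene (0.00691%) and no member, and 5 members had an unadjusted p under 0.05 (Itga3, Lamb3, Itgb8, Itga9, Lama2) beside 6.94% of all genes. The difference between the OVA responses of the genotypes gave 0 calls by edgeR and 0 by DESeq2 (0.0% of genes in each), with 5 members (Itga5, Itga2b, Itgb8, Itgb3, Lamc3) and 4.1% of all genes at an unadjusted p under 0.05. Log2 fold changes of the members ran from -0.31 to 0.10 between the OVA groups and from -0.37 to 0.60 between the saline groups.

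Itga5, the alpha chain of the fibronectin receptor, had the smallest p between the OVA groups. It was at 88.2, 94.6, 99.4, 82.8 and 97.6 CPM in Has2+/--OVA lungs, against 103, 118, 95.3, 107 and 114 CPM in WT-OVA lungs. Saline lungs held 106, 88.7, 103 and 92.8 CPM in Has2+/- mice, against 95.3, 89.7, 91.7, 90.8 and 99.9 CPM in WT mice. Libraries 17 and 19 of Has2+/--OVA mice lay above the lowest WT-OVA library and the saline groups overlapped. The log2 fold change between the OVA groups was -0.21 (SE 0.07, 95% interval -0.36 to -0.07), with an unadjusted p of 0.00577 and an adjusted p of 0.432. The OVA response was -0.08 (SE 0.07, adjusted p = 0.451) in Has2+/- and 0.20 (SE 0.07, adjusted p = 0.0332) in WT mice, and their difference was -0.28 (unadjusted p = 0.0124, adjusted p = 1.0).

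Itga7 was next, at -0.27 between the OVA groups (95% interval -0.57 to 0.02, adjusted p = 0.652), with the library values given above. Lamc3, a gamma chain of low abundance, came after it. Its level was 30.9, 25.4, 31.9, 27.9 and 24.01 CPM in Has2+/--OVA lungs, against 24.2, 30.1, 36.7, 33.6 and 38.5 CPM in WT-OVA lungs. In saline lungs it was 39.1, 31.3, 29.6 and 35.6 CPM in Has2+/- mice, against 28.2, 28.2, 32.8, 32.2 and 32.5 CPM in WT mice. All groups overlapped, and Lamc3 passed in no comparison (log2 fold change -0.22, 95% interval -0.46 to 0.02, adjusted p = 0.661 between the OVA groups). OVA over saline was -0.27 (SE 0.12, adjusted p = 0.099) in Has2+/- mice and 0.09 (SE 0.12, adjusted p = 0.609) in WT mice.

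Between the saline groups, the 3 members of smallest p were Itga3 (-0.24, 95% interval -0.42 to -0.06), Lamb3 (-0.29, interval -0.51 to -0.07) and Itgb8 (0.60, interval 0.12 to 1.08), each as Has2+/--saline over WT-saline on the log2 scale. Their adjusted p were 0.639, 0.639 and 0.655. Libraries of the 2 genotypes did not overlap for 1 member after OVA, Itgb6 (44.6 to 49.6 CPM in Has2+/--OVA against 49.8 to 56.97 CPM in WT-OVA lungs), where 1.9% of all genes did not. After saline they did not overlap for Lama2 (164 to 179 CPM in Has2+/--saline against 147 to 158 CPM in WT-saline lungs) among others, where 1.7% of all genes did not. A p that misses the threshold does not show that the genotypes are alike.

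**Figure D5:**
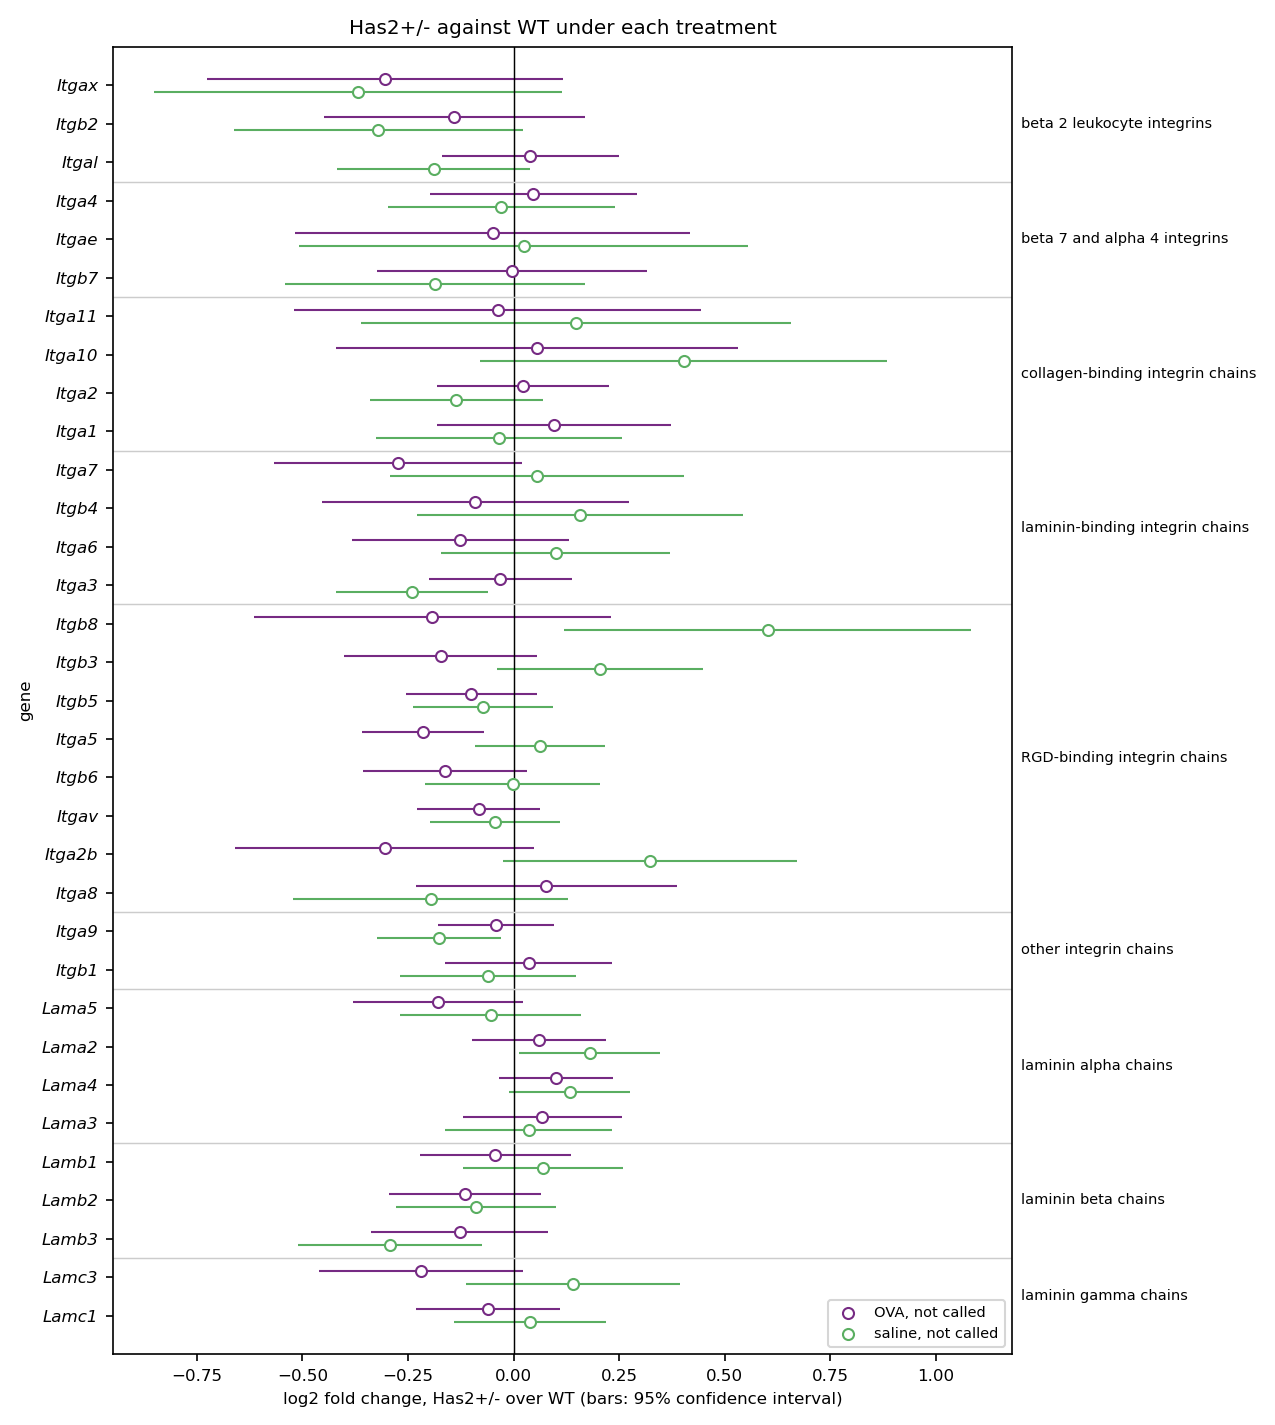
Log2 fold changes of Has2+/- over WT for 33 of the 34 tested members, in OVA and in saline lungs, with bars for the 95% interval of edgeR's fit. No point is called. Itga5 in OVA lungs lies at -0.21 (-0.36 to -0.07), and Itgb8 in saline lungs lies highest at 0.60 (0.12 to 1.08).

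Has2+/--OVA lungs were also set against WT-saline lungs, as in the study, and this shares the WT-saline libraries with the WT comparison. It called 15 members, 7 higher and 8 lower, against 20.4% of all genes (10.9% higher, 9.56% lower), and the libraries of 18 members did not overlap, against 24.9% of all genes. The higher ones were Itgax, Itgb2, Itga7, Itga4, Itgal, Itgb7 and Itgb8, and the lower ones included Itga1, Itga2, Itga2b, Itga3, Itga8, Lamb2 and Lamb3. Itgb8 was called here at 0.79 (SE 0.22, adjusted p = 0.00752), and its call was lost without any 1 of 8 libraries, as was that of Itgb7 without any 1 of 13 and that of Itga2b without any 1 of 3. Itga8 gave -0.74 (SE 0.15, adjusted p = 0.000654), Lamb3 gave -0.57 (SE 0.10, adjusted p = 0.000176) and Itga2b gave -0.65 (SE 0.17, adjusted p = 0.00476).

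Genes that work with integrins and laminins were counted from 3 lists, and of all tested genes 10.5% rose and 7.72% fell in Has2+/- mice and 12% rose and 9.95% fell in WT mice. Of 34 genes of integrin activation and the adhesion plaque, 4 rose and 11 fell in Has2+/- mice and 5 rose and 11 fell in WT mice. The 5 of smallest p in WT mice were Ptk2b, a kinase of leukocytes (0.98 and 1.00 in Has2+/- and WT mice), Ptk2, the focal adhesion kinase (-0.48 and -0.56), the actin linker Parva (-0.35 and -0.45), the integrin activator of blood cells Fermt3 (0.89 and 0.90) and the adaptor Lims2 (-0.77 and -0.91). The median log2 fold change of this list was -0.22 in Has2+/- and -0.20 in WT mice.

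Of 30 partners of laminins in the basement membrane and other laminin receptors, 2 rose and 11 fell in Has2+/- mice and 3 rose and 12 fell in WT mice, with median log2 fold changes of -0.34 and -0.23. Ntn4, a netrin that binds laminin, fell (-0.61 and -0.92), as did the heparan sulfate proteoglycan Sdc2 (-0.69 and -0.76) and the basement membrane anchor Frem2 (-0.91 and -1.19). Sdc1, a proteoglycan of epithelia and plasma cells, rose in both (0.36 and 0.45). Col15a1, a collagen under endothelium, rose in WT mice (1.00, adjusted p = 6.43e-05) and its Has2+/- value was 0.37 (adjusted p = 0.103).

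Of 40 ligands of integrins other than laminins, 33 were tested, and 5 rose and 5 fell in Has2+/- mice while 9 rose and 6 fell in WT mice, with medians of 0.01 and 0.23. Spp1 (osteopontin) rose by 1.94 in Has2+/- mice and 2.03 in WT mice. Adam8, a membrane protease with a disintegrin domain, rose by 1.52 and 2.04, and Mfge8, a bridge to Itgav receptors, by 1.59 and 2.03. F11r, a junction protein that binds Itgal, fell, at -0.29 and -0.53, and so did Ctgf, a matrix protein, at -0.91 and -1.21. No gene of the 3 lists was called between the genotypes.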

How the data were processed

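The authors deposited a table of counts per gene of 19 lung libraries, made from paired reads mapped to mm10 with CLC Genomics Workbench, along with gene positions on mm10. An rRNA depletion kit is named by the labels and the study's methods and an mRNA kit by the series text, and which one was used is not resolved. A further 38 columns in all, with normalized or transformed values per library, were not used, nor were the authors' comparison columns, which hold fold changes and p-values. No row had a blank name.

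Counts were fitted with edgeR 4.0.16 (limma 3.58.1, R 4.3.3), using TMM factors and a quasi-likelihood model of all libraries with 1 mean per group, after filterByExpr (minimum count 10, minimum total 15, proportion 0.7). Tests were two-sided and adjusted by Benjamini and Hochberg over 14495 genes. Members under this filter were tested by exact permutation of mean CPM. DESeq2 1.42.0 was an alternative. The procedure was tested on simulated data. Tables and figures were made with Python 3.11.15, pandas 2.3.3, scipy 1.17.1, numpy 2.4.6 and matplotlib 3.10.9.

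Members, lists and promoter motifs were chosen with earlier results of these data known. Counts over members cover all 36, and 1 member is not reported here by itself. Library values are printed for the 7 members with the largest rise and the 7 with the largest fall among those called in either OVA comparison within a genotype (by the mean of both log2 fold changes), the 3 of smallest p in each comparison of genotypes and in the interaction, and the members under the filter, and for each list up to 5 genes of smallest p in WT mice. Exon lengths are those of GENCODE M21, whose gene bounds equal the deposited ones for 30 of 36 members. Promoter sequences are from RefSeq on GRCm38.p6, with 22 of 36 members matched. Alternatives were RLE factors, no filter, 20 counts in 4 libraries, only the compared groups, DESeq2, an adjusted p under 0.05, a fold above 2.3, each library left out, and, chosen after seeing the data, leaving out libraries 8, 9 and 19. CPM under the filter were also taken without TMM.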

Additional observations from a re-analysis of the deposited data

Results flagged for a closer look

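In 8 of 144 combinations of a member and a group, 1 library lay far from the others of its group, where chance alone would flag about 1 in 20, or 7.2. Of these, 7 are given here. Has2+/--OVA library 17 held Itga9 at 105.7 CPM, with 88.8 to 91.9 in the others, Itgb5 at 155.6 CPM, with 128 to 135, and Itgad at 1.40 CPM, with 0.370 to 0.576. In Has2+/--saline lungs, Itga10 was at 4.68 CPM in library 8, with 6.09 to 6.25 in the others. In WT-saline lungs, Itgax was at 125 CPM in library 2, with 55.4 to 69.0 in the others, Itga2b was at 20.01 CPM in library 5, with 15.9 to 17.1 in the others, and Itgad was at 1.10 CPM in library 1, with 0 to 0.198 in the others. No difference between the genotypes in their OVA response passed the test.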

How the results depend on the processing

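No called member changed direction under any alternative. For called members and those of smallest p between the genotypes, 1240 refitted values kept their direction and side of the threshold and 82 lost the call. Of the members not called after OVA, 6 of 21 in Has2+/- and 2 of 18 in WT mice gained a call under at least 1 alternative, and 5 and 3 changed sign with none called there. Among these, Itgb3 and Itgb4 stood at 0.10 and 0.19 in Has2+/- mice without library 9, against -0.01 and -0.05 with it. A fold above 2.3 left 2 calls in Has2+/- mice, 3 in WT mice and 2 for Has2+/--OVA against WT-saline. A model of the compared groups alone gave 7 calls in Has2+/- mice (5 higher, 2 lower), losing Itga1, Itga3, Itgb7, Lamb2 and Lamc1 among others, and the cause was not tested. Without adjustment 1 of 8 tests of members under the filter passed. Leaving out each library in turn gave 10 to 18 calls in Has2+/- mice, 12 to 17 in WT mice and 12 to 17 for Has2+/--OVA against WT-saline, and 0 to 0 between genotypes and for the interaction. The 18 came without Has2+/--saline library 9, which added Itga8, Itgae, Itgb1, Lama3 and Lamb3. Shares of all genes are not given for these alternatives, so their counts describe the members only. Members under the filter gave 0 calls each time, and no other count was possible. Their smallest possible p with all libraries was 0.00794 for 5 against 5 libraries, and larger for 5 against 4. After adjustment over 8 tests, no p could fall under 0.01. No paired analysis was possible because the columns of the count table carry no replicate number that ties libraries across groups. Depth limited Itgad and Lama1, which were too low for the model.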

Other observations

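Itgam, the alpha chain (CD11b) of the leukocyte integrin of macrophages, granulocytes and natural killer cells, has 2 entries in the count table. The main one was at 15.8 to 28.2 CPM in Has2+/--OVA against 11.9 to 16.2 CPM in Has2+/--saline lungs, and at 23.8 to 30.8 CPM in WT-OVA against 8.52 to 24.6 CPM in WT-saline lungs. It rose in WT mice by a log2 fold change of 0.77 (SE 0.22, edgeR's adjusted p = 0.00915), and in Has2+/- mice the value was 0.53 (SE 0.24, adjusted p = 0.0942). The difference between these responses was -0.23 (adjusted p = 1.0). The second entry held 0 to 21 counts a library and was not tested. How reads were split between the entries is not stated, so the level of Itgam as a whole is uncertain.

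Among the alpha chains that pair with Itgb2, without Itgam, Itgax made up 75.1% ± 4.95 of CPM per kb in Has2+/--OVA against 46.8% ± 3.96 in Has2+/--saline lungs (SD, n = 5 and 4), and 79.5% ± 3.02 in WT-OVA against 49.2% ± 7.01 in WT-saline lungs (SD, n = 5 each). Itgal took nearly all of the rest. The ranges of OVA and saline libraries did not overlap within either genotype, and no test was run on these shares.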
